A study of Mus musculus with 8 samples.

Results

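The BCL2 family decides whether the outer membrane of the mitochondrion stays closed or is opened to start apoptosis, and 10 of its genes were described here in CD4+ T cells of 2 retrogenic clones. They were 5 anti-apoptotic genes (Bcl2, Bcl2l1, Mcl1, Bcl2a1b and Bcl2a1d), 3 BH3-only genes (Bcl2l11, Bbc3 and Pmaip1) and 2 effectors (Bax and Bak1). Each was taken by its symbol in the GENCODE annotation from the 39056 genes of the count table. All 10 passed the filter on low counts, which kept 12619 genes for testing. RNA was measured in CD4+ T cells purified by flow cytometry from spleen and lymph nodes that had been pooled. All mice were on the C57BL/6J strain, and in both groups the cells carried the genotype CD4-Cre TCRβtg Tcra-/-, that is, a Cre transgene under CD4 control, a T cell receptor (TCR) beta transgene and no endogenous TCR alpha gene. Mice had been given bone marrow with a retrovirus that supplied the ANT TCRα in 1 group (ANT replicates 1, 3, 4 and 5) and the SAS TCRα in the other (SAS replicates 1, 2, 3 and 6). Age, and what host cells remained in the recipients, are not given in the sources used here, and no floxed allele is named in the labels. The title of the series concerns self-reactive clones with a T follicular helper-like state, and SAS against ANT is the comparison its labels allow. The labels number the samples but do not say that each came from its own mouse, so the p-values here cover only the spread among the samples, which may be technical.

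Anti-apoptotic members hold the effectors and the BH3-only proteins in check through a shared groove. BH3-only proteins such as BIM (encoded by Bcl2l11), PUMA (Bbc3) and NOXA (Pmaip1) fill that groove or act on the effectors BAX and BAK, which form pores that release cytochrome c. In resting T cells BCL2 is maintained by interleukin-7 (IL-7) signals. BCL-XL (Bcl2l1) and A1 (the Bcl2a1 genes) are known to be induced by antigen receptor, costimulation and NF-kB signals, and BIM is required for the removal of self-reactive thymocytes.

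The Bcl2a1 genes are shown first because 2 of the 10 genes are near-identical copies whose reads are hard to assign. Both lie on mouse chromosome 9 of GRCm38 (mm10), Bcl2a1b on the plus strand at chr9:89199209-89207827 and Bcl2a1d on the minus strand at chr9:88723285-88731914. Their annotated transcripts, of 817 and 863 bases, were identical at 810 of 817 aligned bases (99.1%). Of all stretches of 50 bases in the Bcl2a1b transcript, 57.6% also occurred in Bcl2a1d, and 31.1% of stretches of 100 bases did. The sequence before the genes was as alike: the stretches printed here, at chr9:89199023-89199164 (plus strand) and chr9:88731915-88732050 (minus strand), come from the RefSeq promoter table (GRCm38.p6) and were identical at 135 of 136 aligned bases. Capitals mark where they differ, which is the substitution G19A (the base of Bcl2a1b first, with positions counted from 1 at the 5′ end of its printed stretch) and 6 bases present in Bcl2a1b only.
Bcl2a1b: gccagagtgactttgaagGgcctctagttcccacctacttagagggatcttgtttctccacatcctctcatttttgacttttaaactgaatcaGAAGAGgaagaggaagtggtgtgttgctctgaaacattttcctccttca
Bcl2a1d: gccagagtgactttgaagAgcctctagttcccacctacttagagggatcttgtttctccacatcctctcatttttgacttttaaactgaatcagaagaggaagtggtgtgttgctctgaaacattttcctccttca
Both stretches hold the AP-1 motif TGANTCA, as do 6.75% of the 32817 promoter windows of 250 bases in that table.

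The BH3-only genes Bcl2l11 and Bbc3 are shown next because their transcripts moved in opposite directions between the clones. The windows are the 250 bases before a RefSeq start, at chr2:128125788-128126037 for Bcl2l11 and chr7:16310011-16310260 for Bbc3, both on the plus strand of GRCm38.p6. Capitals mark every match, on either strand, to the FOXO motif GTAAACA and the EGR motif GCGNGGGCG.
Bcl2l11: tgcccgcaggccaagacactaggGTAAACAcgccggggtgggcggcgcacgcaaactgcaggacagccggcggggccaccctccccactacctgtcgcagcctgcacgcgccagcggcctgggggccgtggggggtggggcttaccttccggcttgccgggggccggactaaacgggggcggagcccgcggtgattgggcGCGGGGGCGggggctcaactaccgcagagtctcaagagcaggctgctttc
Bbc3: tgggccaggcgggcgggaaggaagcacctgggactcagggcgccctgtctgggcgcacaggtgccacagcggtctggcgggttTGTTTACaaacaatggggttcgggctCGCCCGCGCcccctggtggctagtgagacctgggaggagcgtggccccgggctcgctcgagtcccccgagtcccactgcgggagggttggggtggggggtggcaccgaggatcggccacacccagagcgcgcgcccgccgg
These windows were printed because they hold a FOXO match, so the presence of that match was fixed by the choice. Each printed window held 1 match to each of these motifs. Of the 2 windows of Bcl2l11 and the 3 of Bbc3 in the table, they were the only ones with both. The EGR match of Bbc3 overlapped a match to the NF-kB motif (GGG, any 5 bases, CC). Over all 32817 windows the shares with a match were 3.16% for FOXO, 4.70% for EGR and 45.8% for NF-kB. Of the 10 genes, 9 had an entry in the table, with 14 windows in all, and 10 of these 14 windows held an NF-kB match. An EGR match was in 5 of the 14 (windows of Bbc3, Bcl2l11, Bcl2a1b and Bcl2a1d), a FOXO match in 2 and an AP-1 match in 2. The NR4A motif AAAGGTCA and the CRE motif TGACGTCA had 0 matches in the 14 windows, against 1.34% and 1.55% of all windows. A match is a string of letters, not a measured binding site.

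The libraries held 27600959 to 31810799 counts each, and no pair was identical. The first principal component (73.7% of the variance) separated the clones, and the second (10.6%) set ANT replicates 1 and 3 and SAS replicate 1 (scores of 23.6 to 26.6) apart from ANT replicates 4 and 5 and SAS replicate 2 (scores of -31.3 to -25.0). The summed level of the 8 CD4 T cell markers was 4296 to 5037 CPM (counts per 1000000, scaled with TMM factors) in ANT and 4041 to 4368 in SAS. The 9 B cell markers summed to 643 to 692 CPM in ANT and 125 to 187 in SAS, and without Ighm to 4.07 to 6.58 and 2.57 to 7.87. Of the 2 CD8 markers the sum was 14.1 to 66.8 CPM in ANT and 1.99 to 4.49 in SAS. Most of it was Cd8b1, with means of 33.6 and 2.42 CPM (edgeR adjusted p = 0.000109). Cd8a had means of 2.56 and 0.916 CPM and did not pass the test (edgeR adjusted p = 0.0919). Summed over 8 myeloid markers, levels were 4.48 to 6.41 CPM in ANT and 4.35 to 8.87 in SAS, where Cd14 was at 0. The neutrophil, dendritic and NK lists stayed at or below 1.96 CPM in every library, with Ly6g and Mpo at 0 in ANT, Xcr1 at 0 in both groups, Siglech at 0 in SAS, and Ncr1, Klra8 and Klre1 at 0 in both groups. The 3 plasma cell markers summed to 3.28 to 9.27 CPM in ANT and 3.41 to 14.2 in SAS, and the 6 erythroid markers to 0.828 to 12.9 and 1.28 to 5.85. The 5 stromal markers summed to 228 to 327 CPM in ANT and 241 to 281 in SAS. Without Pecam1 they summed to 0.368 to 0.517 CPM in ANT and 0.707 to 2.21 in SAS, where Cdh5 was at 0. The part of these other lists in the results was not tested.

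Of the 10 family genes, 8 differed between the clones (edgeR quasi-likelihood test, Benjamini-Hochberg adjusted p under 0.05). The background was high: 37.4% of all tested genes passed, 19.8% as higher in SAS and 17.7% as higher in ANT. Higher in SAS were 7 of the 10, namely Bcl2, Bcl2l1, Bcl2a1b, Bcl2a1d, Bcl2l11, Pmaip1 and Bak1. Higher in ANT was Bbc3 alone among them. For Mcl1 and Bax the test was not passed. For 8 of the 10 genes the 2 sets of 4 libraries did not overlap, against 38.1% of all tested genes. The median log2 fold change of the 10 was 1.30 (SAS minus ANT), where it was -0.0032 over all tested genes. The 10 genes were chosen with earlier results of these data known, so these comparisons are no test of the family. Bcl2a1b and Bcl2a1d, which count separately here, are near-identical copies. Split by role, the anti-apoptotic genes had 4 of 5 higher in SAS with a median log2 fold change of 1.78. The pro-apoptotic genes had 3 of 5 higher in SAS and 1 of 5 higher in ANT, with a median of 0.49. So genes of both roles were higher in SAS. In bulk RNA, a change in the number of cells of some type and a change in RNA per cell cannot be told apart.

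**Figure D1:**
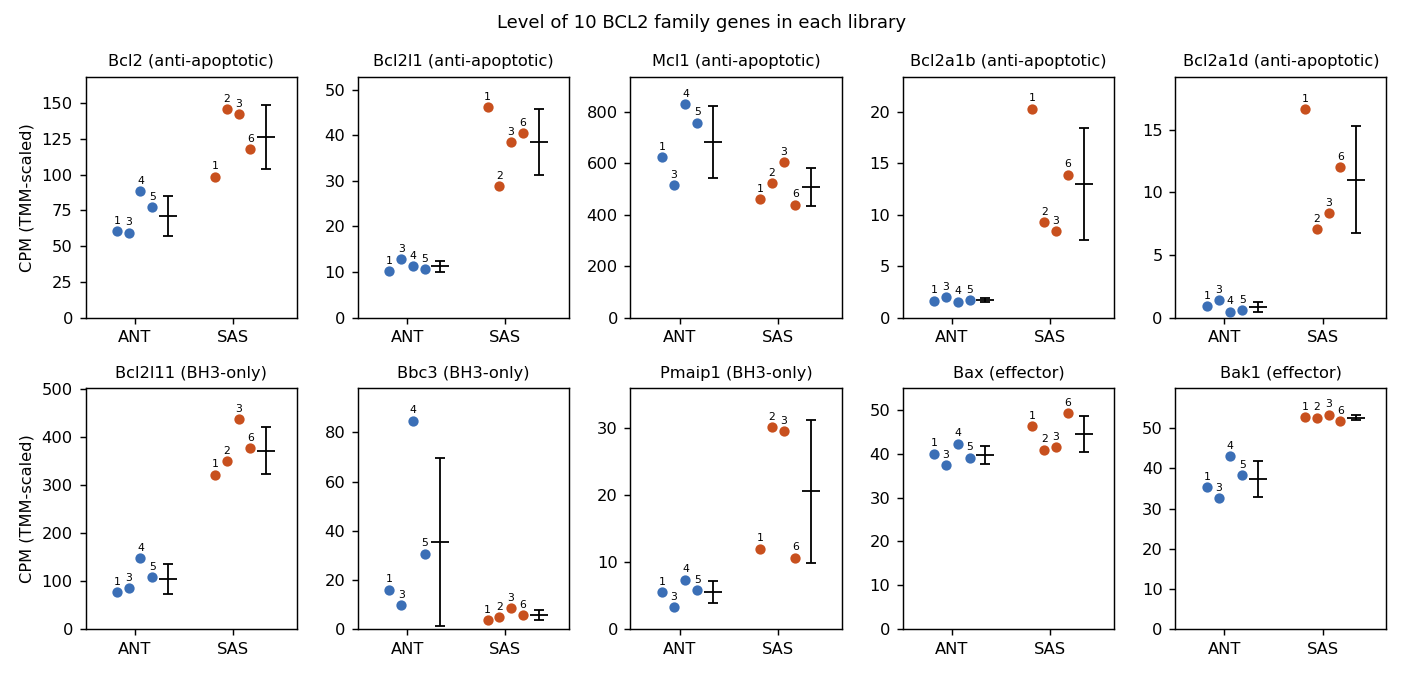
Level of each of the 10 genes in each library in CPM (linear axes from 0), with ANT in blue and SAS in orange; numbers are replicates, and the bars beside them are the mean ± SD of 4 libraries. The groups do not overlap except for Mcl1 and Bax, and ANT replicate 4 (84.8 CPM) is the highest Bbc3 value.

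Among the anti-apoptotic genes, Bcl2 itself was moderately higher in SAS. Bcl2 (ENSMUSG00000057329.7, chr1:106538178-106714274) stood at 60.2, 59.4, 88.3 and 77.5 CPM in ANT replicates 1, 3, 4 and 5. In SAS replicates 1, 2, 3 and 6 it stood at 98.6, 146, 142 and 118 CPM. All SAS libraries lay above all ANT libraries, and ANT replicates 4 and 5 were nearer to SAS than ANT replicates 1 and 3. The means were 71.4 ± 14.0 and 126 ± 22.1 CPM (SD, n = 4 each), a log2 fold change of 0.82 (SE 0.17, edgeR adjusted p = 0.00317).

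BCL-XL transcripts rose further from a lower level. Bcl2l1 (ENSMUSG00000007659.18, chr2:152780668-152831728) was at 10.2, 12.9, 11.2 and 10.6 CPM in the ANT libraries, in the same order of replicates. The SAS libraries had 46.2, 28.8, 38.5 and 40.5 CPM. ANT values lay close together, and the lowest SAS library was above all of them. Means of 11.2 ± 1.18 and 38.5 ± 7.22 CPM (SD, n = 4 each) gave a log2 fold change of 1.78 (SE 0.16, edgeR adjusted p = 1.3e-05), and 8.24% of all tested genes changed by as much or more in either direction.

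The 2 Bcl2a1 genes, which encode copies of the A1 protein, had the largest log2 fold changes of the 10. Bcl2a1b (ENSMUSG00000089929.1) was at 1.66, 1.98, 1.55 and 1.72 CPM in ANT, from 43 to 54 counts a library. In SAS it was at 20.3, 9.26, 8.42 and 13.9 CPM. Every SAS library exceeded every ANT library, and SAS replicate 1 was the highest. The log2 fold change was 2.91 (SE 0.29, edgeR adjusted p = 3.0e-05), from means of 1.73 ± 0.185 and 13.0 ± 5.46 CPM (SD, n = 4 each). Bcl2a1d (ENSMUSG00000099974.1) was at 0.897, 1.40, 0.469 and 0.586 CPM in ANT, from 13 to 38 counts a library. SAS libraries had 16.6, 7.08, 8.32 and 12.0 CPM of it. Replicate 1 was again the highest of the SAS libraries for this copy. Its log2 fold change was 3.71 (SE 0.38, edgeR adjusted p = 3.9e-05), from means of 0.837 ± 0.415 and 11.0 ± 4.29 CPM (SD, n = 4 each).

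How reads that match several places were counted is not given in the sources used here, so the split between the copies and their levels are uncertain. Of all stretches of 50 bases in the Bcl2a1d transcript, 79.5% also occurred in Bcl2a1b or Bcl2a1a. The ratio of Bcl2a1d to Bcl2a1b counts was 0.302 to 0.704 in ANT and 0.765 to 0.988 in SAS. When the counts of Bcl2a1a, Bcl2a1b, Bcl2a1c and Bcl2a1d were summed before the fit, the log2 fold change of the sum was 3.22 (SE 0.30, edgeR adjusted p = 1.8e-05). The other 2 copies added little, with at most 1 count in any library for Bcl2a1a and for Bcl2a1c.

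Mcl1, a short-lived anti-apoptotic protein that lymphocytes need to survive, was the exception among the anti-apoptotic genes. Mcl1 (ENSMUSG00000038612.16, chr3:95658788-95663176) had 623, 516, 830 and 758 CPM in ANT. Its SAS libraries had 460, 522, 604 and 439 CPM. The ranges overlapped, since ANT replicate 3 fell below SAS replicates 2 and 3. The means, 682 ± 140 CPM in ANT and 506 ± 74.0 in SAS (SD, n = 4 each), gave a log2 fold change of -0.43 (SE 0.16, edgeR adjusted p = 0.0637). This gene's call depended on the analysis: it passed with DESeq2 (-0.43, adjusted p = 0.0333), with edgeR and upper-quartile scaling (-0.44, adjusted p = 0.0469), when ANT replicate 3 was left out (-0.55, adjusted p = 0.0185) and when SAS replicate 3 was (-0.52, adjusted p = 0.0488). With only ANT replicates 1 and 3 the value was -0.19 (adjusted p = 0.299). Its direction was the same in all 19 alternatives.

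The BH3-only genes split. Bcl2l11 (ENSMUSG00000027381.16, chr2:128126038-128162547), which encodes BIM, was at 76.3, 85.0, 147 and 107 CPM in the ANT libraries. In the SAS libraries it was at 321, 350, 437 and 376 CPM. The lowest SAS library was well above the highest ANT library. From means of 104 ± 31.7 and 371 ± 49.3 CPM (SD, n = 4 each), the log2 fold change was 1.84 (SE 0.20, edgeR adjusted p = 5.9e-05). As large a change in either direction was found for 7.94% of all tested genes.

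Bbc3, which encodes PUMA, a BH3-only protein best known as a target of p53, went the other way. Bbc3 (ENSMUSG00000002083.13, chr7:16308393-16318205) was at 16.0, 9.78, 84.8 and 30.7 CPM in ANT. It was at 3.69, 4.84, 8.59 and 5.59 CPM in SAS. All ANT libraries were above all SAS libraries, but ANT replicate 3 only just, and ANT replicate 4 stood far above the rest. The means were 35.3 ± 34.2 CPM in ANT and 5.68 ± 2.10 in SAS (SD, n = 4 each), with a log2 fold change of -2.64 (SE 0.61, edgeR adjusted p = 0.00643). Its size rested on which ANT libraries entered. Without ANT replicate 4 it was -1.74 (adjusted p = 0.00660). With only ANT replicates 1 and 3 it was -1.21 (adjusted p = 0.0157), and with only ANT replicates 4 and 5 it was -3.35 (adjusted p = 0.00456).

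Pmaip1 encodes NOXA, a BH3-only protein that binds MCL1 and A1. Pmaip1 (ENSMUSG00000024521.7, chr18:66458533-66465565) was at 5.52, 3.27, 7.39 and 5.86 CPM in ANT. SAS libraries had 12.0, 30.2, 29.6 and 10.7 CPM. The groups did not overlap, and the SAS libraries themselves fell into a higher pair (replicates 2 and 3) and a lower pair (replicates 1 and 6). Means of 5.51 ± 1.70 and 20.6 ± 10.7 CPM (SD, n = 4 each) gave a log2 fold change of 1.90 (SE 0.38, edgeR adjusted p = 0.00299). Against ANT replicates 4 and 5 alone the change was 1.63 and was not called (adjusted p = 0.0771).

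Of the effectors, Bak1 was slightly higher in SAS and Bax was not called. Bak1 (ENSMUSG00000057789.13, chr17:27019810-27029009), which encodes the pore-forming BAK, was at 35.4, 32.7, 43.1 and 38.4 CPM in ANT. It was at 52.8, 52.7, 53.5 and 51.8 CPM in SAS. The SAS values were nearly equal and all lay above ANT. The log2 fold change was 0.49 (SE 0.10, edgeR adjusted p = 0.00378), from means of 37.4 ± 4.47 and 52.7 ± 0.659 CPM (SD, n = 4 each). Ggnbp1, on the opposite strand, overlaps Bak1 and held 1059 counts in the 8 libraries. The library kit keeps strand, but the strand setting of the counting is not given in the sources used here, so a share of Bak1 reads could belong to Ggnbp1. Bax (ENSMUSG00000003873.11, chr7:45461697-45466898), the other effector, was at 40.0, 37.5, 42.3 and 39.1 CPM in ANT. SAS libraries had 46.3, 40.9, 41.4 and 49.3 CPM of Bax. Its ranges overlapped, with a log2 fold change of 0.16 (SE 0.10, edgeR adjusted p = 0.219) from means of 39.7 ± 2.01 and 44.5 ± 4.01 CPM (SD, n = 4 each). At least as large a change was found for 73.3% of tested genes.

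**Figure D2:**
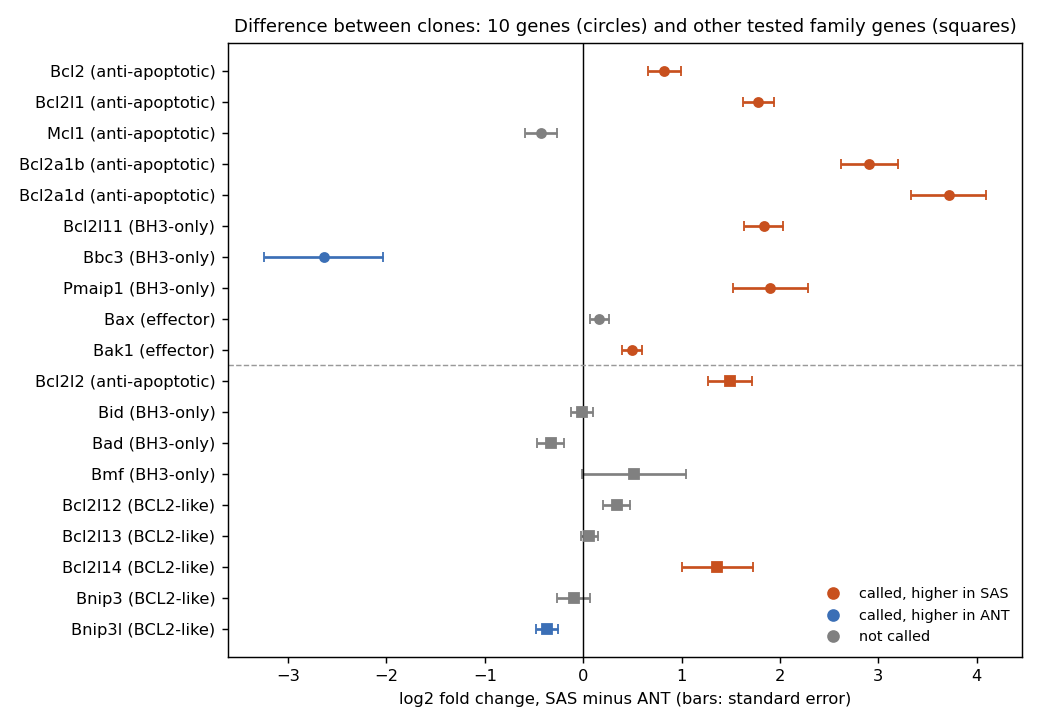
Log2 fold change (SAS minus ANT) with its standard error for the 10 genes (circles) and the 9 other tested family genes (squares), coloured by call (edgeR adjusted p under 0.05). Bcl2a1d (3.71) and Bbc3 (-2.64) mark the ends of the range, and Mcl1 and Bax are the 2 of the 10 that were not called.

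Levels of different genes can be compared only per length, so counts were also divided by the length of the union of each gene's exons (CPM per kilobase). On this scale Mcl1 was the most abundant of the 10 in both clones, at 199 ± 41.0 CPM per kilobase in ANT and 148 ± 21.7 in SAS (SD, n = 4 each). In ANT the order of mean levels after Mcl1 was Bax (25.2), Bbc3 (16.6), Bak1 (15.5), Bcl2l11 (12.9), Bcl2 (7.79), Bcl2l1 (2.45), Bcl2a1b (2.12), Pmaip1 (2.02) and Bcl2a1d (0.970). Only 2 steps in that order separated neighbours whose libraries did not overlap, from Mcl1 to Bax and from Bcl2 to Bcl2l1. In SAS the order after Mcl1 was Bcl2l11 (46.2), Bax (28.2), Bak1 (21.9), Bcl2a1b (15.9), Bcl2 (13.8), Bcl2a1d (12.7), Bcl2l1 (8.40), Pmaip1 (7.54) and Bbc3 (2.67). Here 3 steps separated neighbours without overlap, from Mcl1 to Bcl2l11, to Bax and to Bak1. The places of Bcl2a1b and Bcl2a1d in both orders are uncertain, because it is not known how their shared reads were counted. By mean level, BIM transcripts thus had rank 5 of the 10 in ANT and rank 2 in SAS, and PUMA transcripts rank 3 in ANT and rank 10 in SAS. The Bbc3 mean in ANT (16.6) rested on replicate 4, at 39.9 CPM per kilobase, and every other ANT library lay below that mean. The order of these genes was not the same in all ANT libraries. Bcl2l11 was above Bbc3 in ANT replicates 1 and 3 and below it in ANT replicates 4 and 5. With the longest coding transcript as length, Bcl2l11 had rank 3 and Bbc3 rank 4 in ANT, and in SAS their ranks were again 2 and 10. With that length Bcl2l11 (21.3) was above Bbc3 (16.9) in ANT replicate 5 too, and stayed below it in ANT replicate 4.

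The make-up of the family followed these shifts. Anti-apoptotic genes made up 74.9% ± 2.79 of the summed level per kilobase in ANT and 65.1% ± 1.70 in SAS (SD, n = 4 each), without overlap (70.9% to 76.9% and 63.0% to 67.2%). Mcl1 alone held 66.9% to 72.5% in ANT and 44.7% to 52.2% in SAS. BH3-only genes took 7.52% to 16.8% in ANT and 15.5% to 20.5% in SAS, and these ranges overlapped through ANT replicate 4. With the longest coding transcript as length, the BH3-only ranges did not overlap. With that length the anti-apoptotic share was lower in every library, again without overlap between the clones. Within the BH3-only genes, Bcl2l11 held 30.1% to 64.6% in ANT and 76.6% to 87.8% in SAS. Bbc3 held 28.1% to 65.5% of the BH3-only level in ANT but 3.76% to 5.84% in SAS. These shares restate the members' own levels, including the uncertain levels of the Bcl2a1 copies, and were not tested.

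**Figure D3:**
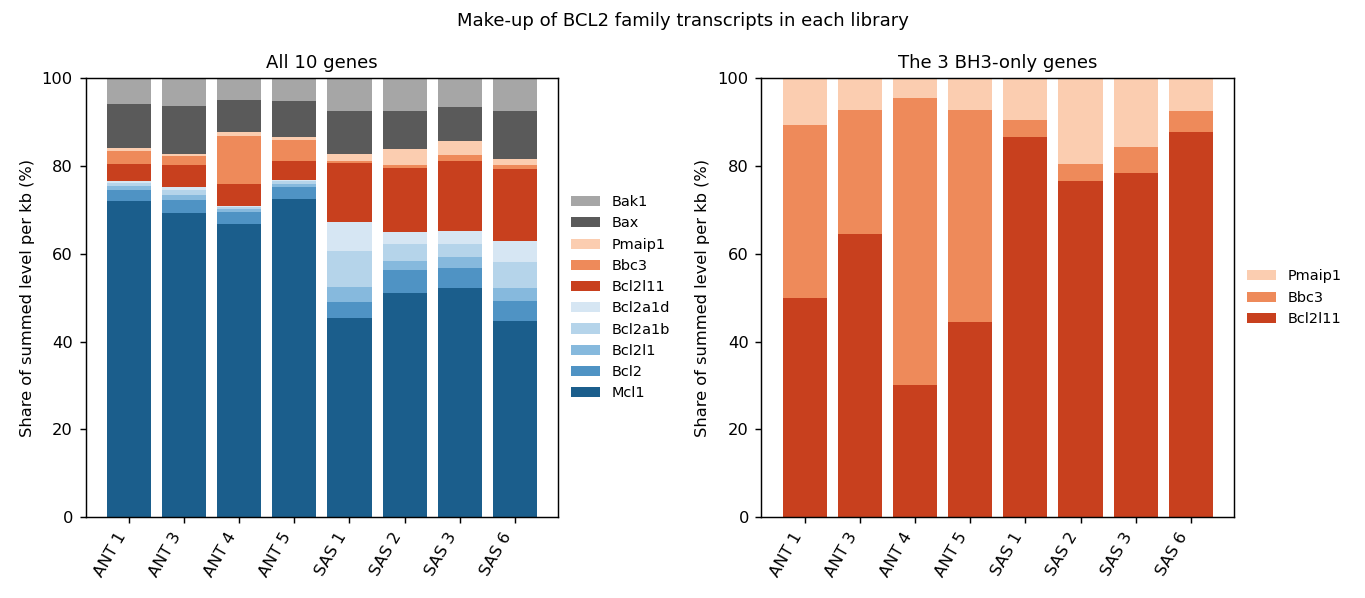
Share (%) of each gene in the summed level per kilobase of the 10 genes (left) and of the 3 BH3-only genes (right), with 1 bar per library. Mcl1 takes 66.9% to 72.5% of the bar in ANT and 44.7% to 52.2% in SAS, and Bbc3 takes 28.1% to 65.5% and 3.76% to 5.84% of the BH3-only bar.

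Ratios of counts within a library do not depend on scaling between libraries. For every count of Bcl2 there were 1.27 to 1.67 counts of Bcl2l11 in ANT and 2.40 to 3.26 in SAS. Per count of Mcl1 there were 0.122 to 0.178 counts of Bcl2l11 in ANT and 0.669 to 0.856 in SAS. Per count of Bbc3 there were 1.74 to 8.70 counts of Bcl2l11 in ANT and 50.8 to 87.1 in SAS. In each of these ratios all SAS libraries lay above all ANT libraries. For the ratio to Bbc3 this follows from the levels of both genes given above. These ratios restate the members' own levels and were not tested. Gene lengths enter the ratios as a constant, so only the difference between clones can be read from them.

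**Figure D4:**
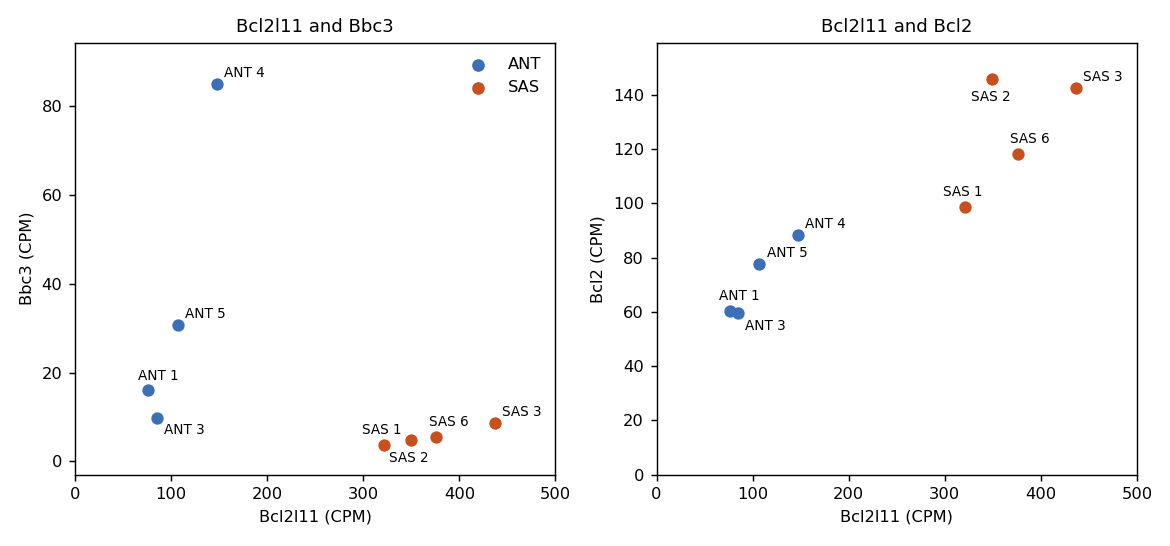
Bcl2l11 level in each library (x axis, CPM) against Bbc3 (left) and Bcl2 (right; y axes, CPM), with ANT in blue and SAS in orange. SAS libraries lie at 321 to 437 CPM of Bcl2l11 with Bbc3 at 3.69 to 8.59 CPM. Within ANT the libraries with more Bcl2l11 (replicates 4 and 5) also have more Bbc3 and Bcl2.

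Within the ANT group, 6 of the 10 genes (Bcl2, Mcl1, Bcl2l11, Bbc3, Pmaip1 and Bak1) were higher in both replicates 4 and 5 than in both replicates 1 and 3. How many of all tested genes split in this way was not counted, so the number cannot be read as a trait of the family. The second principal component also set these pairs of libraries apart. The mean of replicates 4 and 5 was 4.49 times that of replicates 1 and 3 for Bbc3, 1.58 times for Bcl2l11, 1.51 times for Pmaip1 and 1.39 times for both Bcl2 and Mcl1. Bcl2a1d was the only gene of the 10 that was lower in both, at 0.460 times. A list of 16 genes of the response to cell handling (immediate early and heat shock genes) summed to 7542 and 7784 CPM in ANT replicates 4 and 5, to 6781 and 5171 in ANT replicates 1 and 3, and to 5037 to 7016 in SAS. Between the clones 5 of its 15 tested genes were higher in ANT and 1 in SAS (40.0% called, near the 37.4% of all tested genes). Mitochondrial genes took 1.62% and 1.54% of counts in ANT replicates 4 and 5, 2.54% and 2.44% in ANT replicates 1 and 3, and 1.56% to 2.04% in SAS. Their part in the members' differences was not tested. With ANT replicates 1 and 3 alone against SAS, 8 of the 10 genes were called, 7 of them higher in SAS, where 44.5% of all tested genes were called. With ANT replicates 4 and 5 alone the number called was also 8, with 6 higher in SAS, as Pmaip1 was lost and Mcl1 was called (-0.65, edgeR adjusted p = 0.00493), and 36.1% of all tested genes were called.

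A wider list of 16 further BCL2-related genes held 9 that could be tested. Of these, 2 were higher in SAS, 1 was higher in ANT and 6 were not called (33.3% called, against 37.4% of all tested genes). Bcl2l2, which encodes the anti-apoptotic BCL-W, was at 1.79 ± 0.184 CPM in ANT and 5.06 ± 1.35 in SAS (SD, n = 4 each; log2 fold change 1.50, SE 0.22, edgeR adjusted p = 0.000485). Bcl2l14 was low, at 0.524 ± 0.194 and 1.35 ± 0.459 CPM (1.36, SE 0.36, adjusted p = 0.0130). Bnip3l, a mitophagy receptor, was higher in ANT, at 186 ± 20.5 against 144 ± 14.4 CPM (-0.37, SE 0.11, adjusted p = 0.0272). Its call was lost without ANT replicate 1 or 3 or SAS replicate 2, 3 or 6 (adjusted p of 0.0503 to 0.0769), with only ANT replicates 4 and 5 (-0.24, adjusted p = 0.126) and with library size as the only scaling (-0.27, adjusted p = 0.0819). The Bcl2l14 call was lost with only ANT replicates 1 and 3 (0.97, adjusted p = 0.0982).

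The other 3 tested BH3-only genes did not pass the test with all 8 libraries. Bid, the link from death receptors to the mitochondrion, was at 22.4 ± 1.51 CPM in ANT and 22.3 ± 2.46 in SAS (SD, n = 4 each; log2 fold change -0.01, SE 0.12, edgeR adjusted p = 0.947). Bad, which growth factor signals silence by phosphorylation, was at 7.86 to 10.1 and 6.42 to 8.19 CPM (-0.33, SE 0.14, adjusted p = 0.0907), and was called with only ANT replicates 1 and 3 (-0.47, adjusted p = 0.0394). Bmf spread widely within both clones. It had 7.00, 14.5, 3.71 and 8.07 CPM in ANT and 14.8, 13.8, 16.5 and 2.41 in SAS, where replicate 6 was the lowest of all 8 libraries (0.51, SE 0.53, adjusted p = 0.487). Bcl2l12 (0.34), Bcl2l13 (0.06) and Bnip3 (-0.10) did not pass either, with adjusted p of 0.0750, 0.610 and 0.678, although Bcl2l12 did without SAS replicate 3 (0.43, adjusted p = 0.0302). The 7 genes under the count filter were Bcl2a1a, Bcl2a1c, Bcl2l10, Bok, Bik, Hrk and Bcl2l15. Bcl2l10 had 0 counts in every library, which allows up to 3 counts in each. For Hrk, 25 of the 28 SAS counts came from replicate 2, and ANT had 0. Bik had 46 counts over the ANT libraries and 15 over SAS.

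Genes of the mitochondrial death machinery, among them genes of the outer membrane and fission, moved in both directions. Of 20 tested, 5 were higher in SAS and 4 in ANT (45.0% called, against 37.4% of all tested genes; median log2 fold change 0.14). With library size as the only scaling the split was 7 and 1. Birc5, which encodes survivin, was higher in SAS (1.73, edgeR adjusted p = 0.00359), at only 0.644 and 2.15 CPM. Xiap, a direct caspase inhibitor, was slightly higher in SAS (0.37, adjusted p = 0.0364). Casp9, the caspase of the apoptosome, was higher in ANT (-0.58, adjusted p = 0.00229), as were Birc6 (-0.37, adjusted p = 0.0219) and Birc3 (-0.36, adjusted p = 0.0257). The small changes were fragile: Xiap lost its call without ANT replicate 1 or 3 or any 1 of the SAS libraries (adjusted p of 0.0676 to 0.0877), Birc3 without ANT replicate 1 or 3 or SAS replicate 2 or 3 (0.0549 to 0.0705) and Birc6 without SAS replicate 3 or 6 (0.0585 and 0.0714).

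Because Bbc3, Pmaip1 and Bax are known p53 targets, p53 and 20 further genes of its pathway were described as well. Of the 20 tested, 7 were higher in SAS and 3 in ANT (10 of 20 called, median 0.21), and 9 and 2 with library size as the only scaling. Aen, an apoptosis-linked nuclease, was higher in SAS (37.0 ± 6.07 and 60.9 ± 3.27 CPM; 0.72, edgeR adjusted p = 0.00123). Perp rose from near absence, with 5 counts over the 4 ANT libraries and 127 over the 4 SAS libraries (adjusted p = 0.000748). Higher in ANT, as Bbc3 was, were Rrm2b, a subunit of ribonucleotide reductase (50.7 ± 9.64 and 18.7 ± 1.72 CPM; -1.44, adjusted p = 3.4e-05), the antiproliferative gene Btg2 (-0.72, adjusted p = 0.000111) and Mdm4, an inhibitor of p53 (-0.36, adjusted p = 0.0151, and 0.0502 without SAS replicate 3). Trp53inp1 did not pass (0.10, adjusted p = 0.685).

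Among 17 tested regulators of BIM, 6 were higher in SAS and 2 in ANT (47.1% called, against 37.4% of all tested genes, with a median of 0.05). Nr4a1, a nuclear receptor induced by antigen receptor signals, went from 103 ± 16.2 to 1316 ± 72.3 CPM (3.67, SE 0.14, edgeR adjusted p = 5.3e-08). E2f1 was higher in SAS (1.45, adjusted p = 0.000683) from a low level of 2.08 CPM. Higher in ANT were Tsc22d3, a glucocorticoid-induced leucine zipper (622 ± 122 and 199 ± 22.7 CPM; -1.64, adjusted p = 1.8e-05), and Rps6ka3, a kinase of the ERK pathway (-0.60, adjusted p = 0.00191).

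Survival cytokine signalling, which sets BCL2 and MCL1 in T cells, had 8 of its 22 tested genes called as higher in SAS and 5 as higher in ANT (59.1% called, median 0.05). Il7r, the IL-7 receptor chain, was higher in ANT (544 ± 295 and 86.6 ± 19.8 CPM; -2.65, SE 0.36, edgeR adjusted p = 0.000257), where Bcl2 was lower. Il2rb, a chain of the IL-2 and IL-15 receptors, was higher in SAS (3.12 ± 1.05 and 281 ± 23.8 CPM; 6.49, SE 0.24, adjusted p = 4.1e-08), as were Il2ra (3.18, adjusted p = 1.5e-06) and Il6st (0.86, adjusted p = 0.000251). Socs3, an inhibitor of cytokine receptors, was higher in ANT (-3.29, adjusted p = 5.0e-06). Jak1 (-0.07, adjusted p = 0.628) and Stat3 (-0.0022, adjusted p = 0.994) did not pass.

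The NF-kB and costimulation list, which holds known inducers of A1 and BCL-XL, had 11 of its 17 tested genes called as higher in SAS and 1 as higher in ANT (70.6% called, median 0.74). Tnfrsf9, a costimulatory receptor, went from 1.60 ± 0.370 to 402 ± 74.5 CPM (7.97, SE 0.23, edgeR adjusted p = 7.9e-09). The subunits Rel (90.2 ± 2.91 and 302 ± 27.3 CPM; 1.74, adjusted p = 7.8e-07) and Nfkb1 (1.24, adjusted p = 0.00139) and the receptor Cd28 (0.74, adjusted p = 0.00237) were higher in SAS. Icam1, an adhesion molecule, was higher in ANT (-0.79, adjusted p = 0.00686). Tnfaip3, an inhibitor of NF-kB, did not pass (776 ± 476 and 748 ± 397 CPM; -0.05, adjusted p = 0.942).

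Genes that set the stability of the MCL1 protein were not called with all 8 libraries and TMM scaling. Of 6 tested ligases, deubiquitinases and kinases, 0 passed with edgeR, DESeq2 or limma-voom, and 0 had an unadjusted p under 0.05 with any of these tools (median 0.06). With edgeR, 2 passed as higher in SAS with library size as the only scaling, 2 as higher in SAS with only ANT replicates 1 and 3, and 1 as higher in ANT with only ANT replicates 4 and 5 (Gsk3b, -0.38, adjusted p = 0.0210). The most abundant were the ligase Huwe1 (-0.12, edgeR adjusted p = 0.576), the deubiquitinase Usp9x (0.32, adjusted p = 0.123) and the kinase Gsk3b (-0.06, adjusted p = 0.809).

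**Figure D5:**
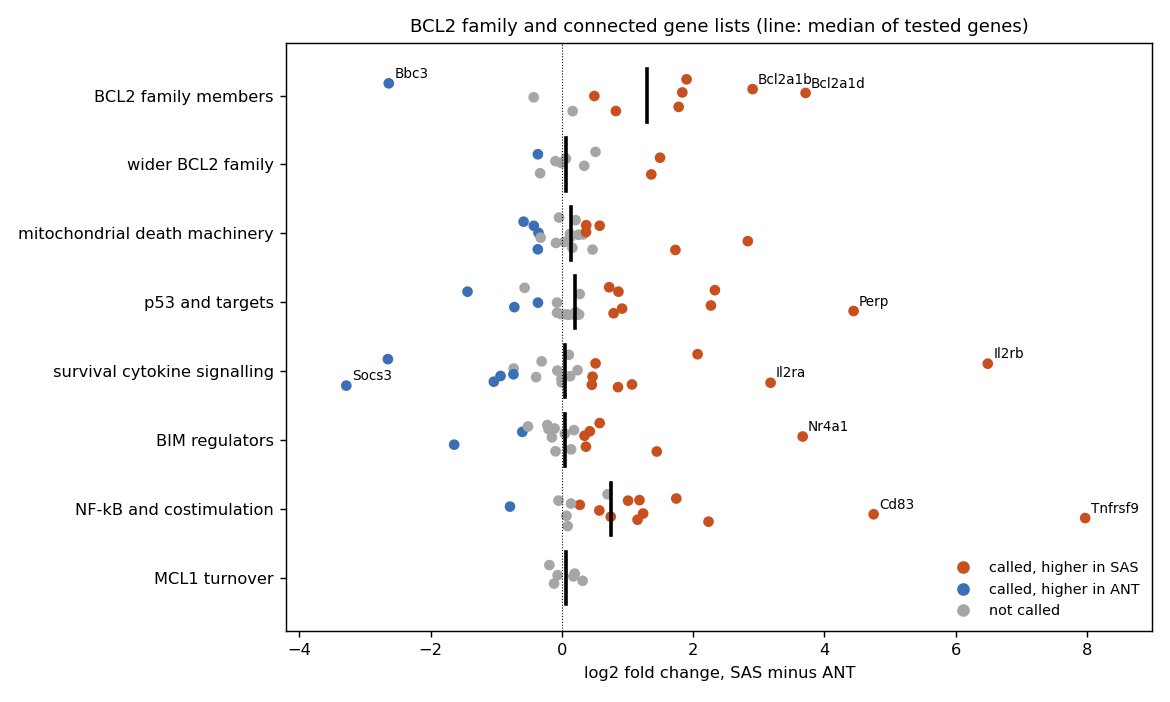
Log2 fold change (SAS minus ANT) of each tested gene of the family and of 6 connected lists, coloured by call, with the median of each list as a vertical line; vertical scatter within a list has no meaning. The median lies at 1.30 for the 10 family genes and 0.74 for the NF-kB and costimulation list, and between 0.05 and 0.21 for the others.

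For 3 members the protein-coding genes with the most similar profile over the 8 libraries were found, by the root mean square difference of mean-centred log2 CPM. Nearest to Bcl2 were Map3k11 (0.0748), Mgat5 (0.0918) and Tnks1bp1 (0.0971). Nearest to Bcl2l11 were Grasp (0.136), Nfkbid (0.156) and Thop1 (0.162). Nearest to Mcl1 were Eif1 (0.0649), Tspyl1 (0.0802) and Cnn2 (0.0805). Nfkbid, an atypical inhibitor of NF-kB, was at 69.1 ± 9.81 CPM in ANT and 251 ± 20.5 in SAS (SD, n = 4 each), a log2 fold change of 1.86 beside 1.84 for Bcl2l11. These genes were selected for likeness over the same libraries, which share their depth and their split by clone.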

How the data were processed

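Counts per gene, in whole numbers, were deposited for 39056 genes in 8 libraries (4 ANT, 4 SAS). The authors aligned reads with STAR to mm10 and counted them with featureCounts, per the submitters' processing notes; versions, strand setting and handling of multi-mapping reads are not given in the sources used here. Sorted cells were lysed in TRI Reagent and strand-specific TruSeq mRNA libraries were made, per the labels' protocols. Symbols, coordinates and lengths came from GENCODE M21 (38872 of 39056 IDs matched). Genes were tested with edgeR 4.0.16 (R 4.3.3): filterByExpr, TMM scaling, robust quasi-likelihood fit of SAS against ANT without covariates, Benjamini-Hochberg adjustment over 12619 genes, calls at 0.05. SE is the absolute log2 fold change over the square root of F. CPM are counts per 1000000 of TMM-scaled library size. Libraries held 27600959 to 31810799 counts, so the genes under 1 CPM have the widest counting error. Alternatives were DESeq2 1.42.0, limma-voom 3.58.1, other scalings and filters, a replicate block, libraries left out, summed Bcl2a1 rows and another gene length. Named genes were the 10 genes, the wider family, the 3 most abundant and up to 2 called genes of smallest p per direction in each of 6 pathway lists, and the 3 nearest profiles of Bcl2, Bcl2l11 and Mcl1 (log2 of CPM plus 0.1). A gene that follows from this rule is not reported here. The members and lists were chosen with earlier results of these data known. The test was checked on simulated data.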

Additional observations from a re-analysis of the deposited data

Results flagged for a closer look

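Of 120 groups of 4 libraries tested (60 genes in each clone), 4 held 1 library far from the other 3 by Dixon's test, where chance at 1 in 20 gives 6. Bcl2l2 was at 1.52 CPM in ANT replicate 5 against 1.86 to 1.91 in the other ANT libraries, and at 7.08 CPM in SAS replicate 2 against 4.24 to 4.57 in the other SAS libraries. Jak1 was at 1253 CPM in SAS replicate 3 against 1148 to 1166 in the others. Thop1 was at 18.8 CPM in SAS replicate 2 against 20.4 to 20.6 in the others. None of the 10 family genes had such a library.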

How the results depend on the processing

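Genes called numbered 3964 to 5913 over the alternatives and family genes called 7 to 9, the 7 with the replicate block (7 of 10) and with the Bcl2a1 rows summed (7 of 9). Of 188 refits of single family genes, 181 kept direction and call, 5 gained the call (all Mcl1), 2 lost it (Bbc3, Pmaip1) and 0 reversed. With library size as the only scaling 64.8% of calls were higher in SAS, against 52.8%, and the median of all genes shifted to 0.094. ANT and SAS shared replicate numbers 1 and 3 only, and deviations of same-numbered libraries correlated at 0.293 and -0.121, so the numbers were not taken as pairs. The other numbers occur only in ANT or only in SAS, so with the replicate block the difference rests on replicates 1 and 3. Little is then left to measure spread, so calls of that fit are not comparable with the others. With the block 5798 genes were called. Bbc3 was lost (-1.13, edgeR adjusted p = 0.220), Mcl1 was -0.10 (adjusted p = 0.587) and Icam1 was lost (-0.30, adjusted p = 0.0728). Bmf and Usp9x were called (0.62 and 0.36, adjusted p = 0.0119 and 0.0291), and 2 of 6 MCL1 turnover genes were called. Of 948 refits of 50 other named genes, 854 kept direction and call, 45 lost and 11 gained the call, and 38 reversed, all of 8 genes that were not called; the cause was not tested. Reversed with library size only were Bid (0.087), Bnip3 (0.0012), Gsk3b (0.033), Jak1 (0.028), Stat3 (0.096) and Tnfaip3 (0.040). With the replicate block they were Bid (0.036), Gsk3b (0.30), Huwe1 (0.050), Jak1 (0.059), Stat3 (0.32), Tnfaip3 (0.93) and Trp53inp1 (-0.030). With ANT replicates 1 and 3 alone they were Gsk3b (0.31, adjusted p = 0.0419), Huwe1 (0.094), Jak1 (0.010), Stat3 (0.31, adjusted p = 0.0280), Tnfaip3 (0.86) and Trp53inp1 (-0.18), and with ANT replicates 4 and 5 alone Bid (0.0018). Stat3 also reversed with limma-voom (0.028) and with the filter at 1 CPM (0.010). With 1 library left out, values ranged from -0.087 to 0.036 for Bid, -0.19 to 0.058 for Gsk3b, -0.20 to 0.019 for Huwe1, -0.10 to 0.11 for Stat3, -0.40 to 0.38 for Tnfaip3 and -0.017 to 0.26 for Trp53inp1. Levels per length moved by more than 1 SD with the longest coding transcript for Bcl2, Bcl2l1, Bcl2l11 and Bax.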
